A study of Mus musculus with 6 samples.

Results

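Adra1b and Adra2c, genes of receptors for noradrenaline and adrenaline, were followed in the larger proximal airways of control and mutant mice. In the mutants, Scgb1a1-cre targets the forkhead factor genes Foxp1 and Foxp4. Adra1b and Adra2c were chosen by name. They are the genes of an adrenergic receptor list that had a row with exactly 1 gene symbol in the platform annotation of the arrays. This held for 2 of the 8 genes on that list, among 19938 genes on the arrays, and the other 6 (Adra1a, Adra1d, Adra2a, Adra2b, Adrb1 and Adrb3), whose names match no listed row, were not analysed here. No beta receptor gene is among the 2 that were, and every receptor value below is of Adra1b or Adra2c. Each of the 2 had a single row, so no second probe set of either gene could be compared.

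Adrenergic receptors are G protein-coupled receptors of the plasma membrane that bind noradrenaline from sympathetic nerves and adrenaline from the circulation. Alpha-1 receptors couple to Gq and phospholipase C, which raises intracellular calcium, and alpha-2 receptors couple to Gi, which lowers cyclic AMP. Beta receptors couple to Gs and adenylyl cyclase, and in the airway they relax smooth muscle. Adra1b encodes the alpha-1B receptor, known from liver, heart and smooth muscle, and Adra2c encodes the alpha-2C receptor, known from brain, adrenal medulla and vascular smooth muscle.

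The samples were larger proximal airways, micro-dissected with forceps and scissors from stained sections of frozen lungs of 9-week-old mice on a mixed C57BL/6 and 129X1 background. The 3 control arrays came from mice of genotype Scgb1a1-Cre, and the 3 mutant arrays from mice of genotype Scgb1a1-cre:Foxp1flox/flox:Foxp4flox/flox, so that both groups carry the Cre driver. Scgb1a1 is the gene of the main secretory protein of club cells, so recombination is restricted to cells in which its promoter is or was active, and smooth muscle, nerve and other cells of the airway wall keep both genes. The design describes lung resistance and compliance after methacholine in these genotypes, which were not analysed here, and the arrays ask how airway transcripts differ between them. Nothing in the labels states that the samples of a group are different mice, and the p-values below cover the spread among these samples, part of which may be technical.

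The upstream windows of both receptor genes are shown because the mutated genes encode forkhead factors, a family that binds DNA at a short core motif. The windows hold the 250 bases before each annotated start in RefSeq (GRCm38.p6), written 5′ to 3′ on the strand of the gene. Each CpG is in capitals, and the number of CpG differs among the windows. Adra1b has 2 annotated starts, at chr11:43901238-43901487 and chr11:43836490-43836739, both on the minus strand, and Adra2c has 1, at chr5:35278316-35278565 on the plus strand.
Adra1b, upstream start: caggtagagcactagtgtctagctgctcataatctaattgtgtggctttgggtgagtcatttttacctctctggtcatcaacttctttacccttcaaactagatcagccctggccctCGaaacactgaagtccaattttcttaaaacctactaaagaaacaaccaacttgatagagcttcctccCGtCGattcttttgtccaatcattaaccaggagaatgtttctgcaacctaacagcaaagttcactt
Adra1b, downstream start: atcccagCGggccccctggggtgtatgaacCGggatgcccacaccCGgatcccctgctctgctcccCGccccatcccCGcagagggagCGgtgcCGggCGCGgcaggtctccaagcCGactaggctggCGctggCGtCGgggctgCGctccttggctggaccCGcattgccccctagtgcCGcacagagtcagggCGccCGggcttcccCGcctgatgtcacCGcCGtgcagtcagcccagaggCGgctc
Adra2c: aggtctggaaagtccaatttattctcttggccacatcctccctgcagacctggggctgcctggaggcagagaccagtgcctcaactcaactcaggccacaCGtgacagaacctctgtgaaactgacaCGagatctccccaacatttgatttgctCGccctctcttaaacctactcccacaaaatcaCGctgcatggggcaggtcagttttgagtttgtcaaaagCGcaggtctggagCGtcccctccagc
The downstream Adra1b window holds 22 CpG and 72.8% G or C. The upstream Adra1b window holds 3 CpG and 41.6%, and the Adra2c window holds 6 CpG and 53.6%, against a median of 6 CpG over 32851 RefSeq windows. The forkhead core TAAACA, searched on both strands, was in none of the 3 windows and in 12% of all windows. The cyclic AMP response element TGACGTCA was in none of them either, and in 1.55% of all windows. These letters are not in these windows, which says nothing of binding elsewhere, and the arrays do not tell which start of Adra1b was used.

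Checks of the arrays come first. Foxp1 read 9.42 to 9.62 on the control arrays and 9.24 to 9.34 on the mutant arrays, and Foxp4 read 8.77 to 9.01 and 7.77 to 8.49. The log2 difference was -0.23 for Foxp1 and -0.69 for Foxp4. The groups did not overlap for either targeted gene, which also held for 15.0% of all genes. Neither targeted gene passed the test over all genes. Airway epithelial markers (9 of 9 measured) averaged between 10.3 and 11.0 on the 6 arrays, and smooth muscle markers (9 of 9) between 10.2 and 10.7. Other tissue was uneven within groups. B and plasma cell markers (8 of 9) averaged 6.62, 9.61 and 9.49 on controls 1 to 3 and 6.05, 7.97 and 6.33 on mutants 1 to 3, T and NK cell markers (8 of 9) averaged 6.15 to 7.82 and 5.79 to 6.68, and cardiac muscle markers (10 of 10) averaged 11.2, 8.82 and 9.48 and 9.74, 11.0 and 8.34. Adipocyte markers (10 of 10) averaged 6.46 to 8.48 on controls and 6.75 to 7.70 on mutants, and endothelial markers (7 of 7) 8.70 to 9.31 and 8.67 to 9.33. Neuron and sympathetic nerve markers (8 of 9) averaged 6.11 on control 1 and 5.31 to 5.52 on the other arrays. Alveolar type 1 and type 2 markers (9 of 9) averaged 10.2 to 10.5 on controls and 10.6 to 10.7 on mutants. Their means did not overlap (closest arrays 10.52 and 10.57), and limma called 0 of these 9 genes. The driver gene Scgb1a1, at 12.1 to 12.4 and 12.5 to 12.6, did not overlap either, as for 15.0% of all genes. It did not pass (limma adjusted p = 0.476). The part of these cells in the differences below was not tested. By Pearson correlation across genes, which are not independent replicates, control 1 correlated at 0.972 and 0.978 with controls 2 and 3 and at 0.979 to 0.983 with the mutants, and the other two controls correlated at 0.992 with each other. All values are log2 RMA expression values, and the number of arrays limits their precision.

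Adra1b and Adra2c did not differ detectably between mutant and control airways, and both gave low readings on every array. Adra1b (probe set 10385353) read 4.64, 4.27 and 4.51 on control arrays 1, 2 and 3 and 4.56, 4.52 and 4.55 on mutant arrays 1, 2 and 3. The mutant readings lay within the span of the control readings, control 2 was the lowest of the 6, and control 1 was the highest. The mean was 4.47 ± 0.19 (SD, n = 3) in controls and 4.54 ± 0.02 in mutants. The difference of 0.07 on the log2 scale (SE 0.11) did not pass limma's test with Benjamini-Hochberg adjustment over all genes (adjusted p = 0.904), and the exact two-sided permutation test gave p = 0.7. Without control 2 the difference was -0.03 (limma adjusted p = 0.980), and over all alternatives that measured the gene its adjusted p ranged from 0.550 to 0.980.

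Adra2c (probe set 10521383) read 4.56, 4.14 and 4.26 on control arrays 1, 2 and 3 and 4.73, 4.35 and 4.37 on mutant arrays 1, 2 and 3. Mutant 1 was the highest array and control 2 the lowest, and control 1 lay above mutants 2 and 3, so the groups overlapped. The mean was 4.32 ± 0.22 (SD, n = 3) in controls and 4.48 ± 0.22 in mutants. The log2 difference of 0.16 (SE 0.15) was smaller than the SD within either group (limma adjusted p = 0.820, range over alternatives 0.306 to 0.985; exact two-sided permutation p = 0.4). It ran from 0.037 without mutant 1 and 0.069 without control 2 to 0.28 without control 1. With 3 arrays per group the exact test cannot go below p = 0.1.

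Of the 2 receptor genes, limma thus called 0 in either direction, where it called 0.266% of all genes, and 0 had an unadjusted p under 0.05, where 10.1% of all genes did. Groups that do not overlap were found for 0 of the 2, against 15.0% of all genes. The 95% confidence interval of the mutant to control fold ran from 0.87 to 1.26 for Adra1b and from 0.86 to 1.45 for Adra2c. These bounds span the differences compatible with the readings. They are not a limit of detection, because a call also had to pass adjustment over all genes. RMA compresses differences of dim probe sets, so the bounds hold for the readings rather than for the transcripts.

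The arrays fell in nearly one order for both receptor genes. For Adra1b, from high to low, they ran control 1, mutant 1, mutant 3, mutant 2, control 3 and control 2. Some steps were small, as from mutant 2 (4.517) to control 3 (4.512). For Adra2c mutant 1 stood before control 1 and the rest followed in the same sequence. The spread between the highest and lowest array was 0.37 for Adra1b and 0.59 for Adra2c, larger than the difference between genotypes for either gene. Controls 2 and 3, the lowest arrays for both genes, were also those with the highest B and plasma cell means (9.61 and 9.49) and T and NK cell means (7.82 and 7.69), and the part of these cells in the readings was not tested. In whole airway RNA, fewer cells that express a gene and less transcript per cell cannot be told apart. The lower quartile of all rows was 4.42 on control 2 and between 4.47 and 4.50 on the other arrays. Olfactory receptor genes, mostly silent outside the nose, gave a similar order by their median on each array. It was highest on mutant 1 (4.043), then 4.014 on mutant 3, 4.012 on control 1 and 4.004 on mutant 2. Control 3 (3.995) and control 2 (3.968) were lowest. The part of array-wide low signal in the order of the receptor genes was not tested.

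**Figure D1:**
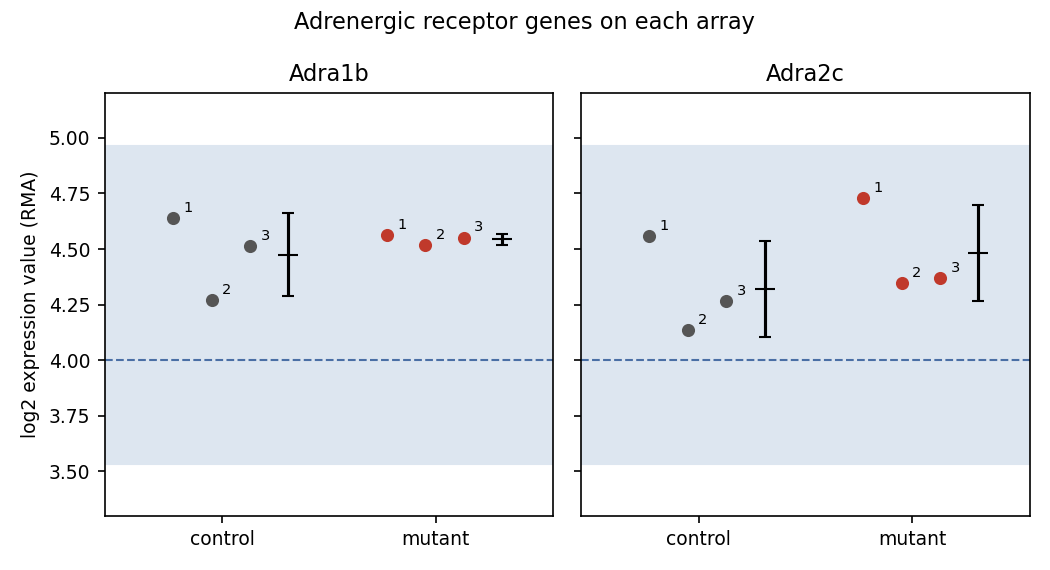
Log2 expression value of Adra1b and Adra2c on each array, with points numbered by replicate and bars giving the mean ± SD of 3 arrays. The shaded band spans the 5th to 95th percentile of the mean values of 1027 olfactory receptor genes (3.53 to 4.97) and the dashed line marks their median (4.00); all 12 readings fall inside the band and the groups overlap for both genes.

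No detection calls were used here, so the readings were set against genes that are mostly silent outside the nose. The mean values of 1027 olfactory receptor genes had a median of 4.00 and a 5th to 95th percentile range of 3.53 to 4.97. The mean over 6 arrays was 4.51 for Adra1b and 4.4 for Adra2c, inside that range, above 85.3% and 79.6% of the olfactory receptor genes. Probe sets differ in affinity, so this is a rough guide to low signal and sets no order between genes. On every array both receptor genes read above the olfactory receptor median of that array, by 0.30 to 0.63 for Adra1b and by 0.17 to 0.69 for Adra2c.

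Similarity to other genes was sought for receptor genes whose values had an SD of at least 0.5 over the 6 arrays. Neither reached it, with an SD of 0.13 for Adra1b and 0.21 for Adra2c, so no gene is named as varying like them.

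The surrounding pathway was described with 6 lists, of transmitter handling, G proteins, effectors and regulators. Of 70 measured genes out of 77 listed, limma called 0 at an adjusted p under 0.05, and 9 (12.9%) had an unadjusted p under 0.05, near the 10.1% of all genes. Groups did not overlap for 6 of the 70 (8.57%), namely Slc22a2, Adcy3 and Pde8b with higher and Prkacb, Gnai2 and Rgs3 with lower readings in mutants, against 15.0% of all genes. The median log2 difference was 0.02 over these genes and 0.02 over all genes. The count of called pathway genes was 3 without control 1 (Adcy2, Pde8b and Gnai1), where 1.95% of all genes were called, and 1 without mutant 2 (Adcy3), where 0.120% were. It was 10 without both of these arrays, where 4.83% of all genes were called. Control 1 and mutant 2 had the lowest weights that limma gave to the 6 arrays (0.505 and 0.484). Without them the groups also differed in B and plasma cell means (9.61 and 9.49 on controls, 6.05 and 6.33 on mutants). The part of those cells in the 10 calls was not tested. The count of called pathway genes was 0 without control 2, control 3, mutant 1 or mutant 3, each left out alone. In those settings limma called only 9, 10, 16 and 15 of 19938 genes.

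**Figure D2:**
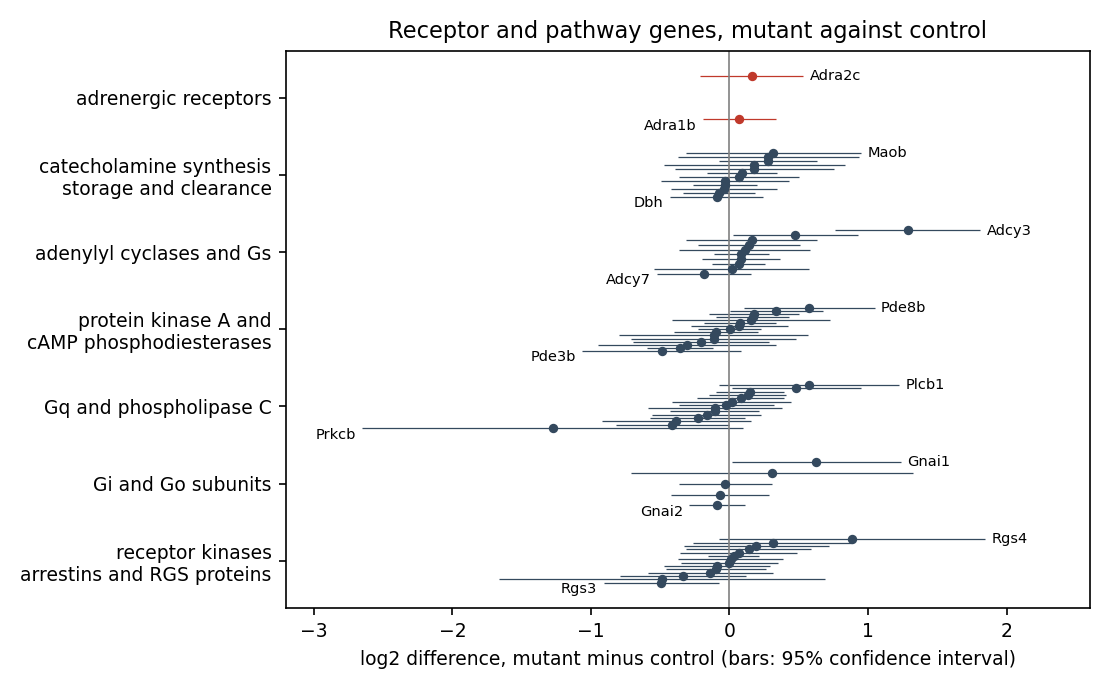
Log2 difference between mutant and control means (x axis) for the 2 receptor genes and the 70 genes of 6 pathway lists (y axis), with 95% confidence intervals from limma and the outermost genes of each list named. Adcy3 has the highest difference of the pathway genes (1.29) and Prkcb the lowest (-1.28), and no gene shown passed adjustment over all genes.

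Genes that supply and clear the transmitter came first. Of 12 measured members of 15, 0 were called, and the median log2 difference was 0.08. An unadjusted p under 0.05 by limma was found for 0 of the 12, against 10.1% of all genes. Th, which encodes tyrosine hydroxylase, the rate-limiting enzyme of catecholamine synthesis, read 4.50 to 5.18 on control and 4.63 to 5.03 on mutant arrays. Dbh, whose product converts dopamine to noradrenaline, read 4.35 to 4.85 and 4.42 to 4.47. Both ranges lay within the olfactory receptor range on most arrays. Th and Dbh are named for their role, after their values were seen. Slc22a2, an organic cation transporter, read 4.87, 4.42 and 4.94 in controls and 5.05, 5.0 and 5.02 in mutants (log2 difference 0.28, limma adjusted p = 0.606), and without control 2 the difference was 0.11.

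The amine-degrading enzymes were read at higher values. Maoa, monoamine oxidase A, averaged 6.89 ± 0.33 (SD, n = 3) in controls and 7.17 ± 0.47 in mutants, and Maob averaged 7.50 ± 0.33 and 7.82 ± 0.45. Both were highest on mutant 2 and then on control 1, the arrays that were also highest for cardiac muscle (11.0 and 11.2), adipocyte (7.70 and 8.48) and endothelial markers (9.33 and 9.31), and the part of these tissues was not tested. The log2 differences of 0.28 for Maoa and 0.32 for Maob were 0.015 and 0.056 without mutant 2. Ddc, aromatic amino acid decarboxylase, differed by 0.09 on the log2 scale.

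Among the adenylyl cyclases, which make cyclic AMP when Gs-coupled receptors are active, Adcy3 stood out in size. Adcy3 (probe set 10394258) encodes the cyclase known from olfactory and primary cilia. It read 6.63, 6.61 and 6.52 on controls 1 to 3 and 8.29, 7.39 and 7.95 on mutants 1 to 3. The control readings lay close together, every mutant lay above every control, and mutant 2 was the lowest mutant. The mean was 6.59 ± 0.06 (SD, n = 3) against 7.88 ± 0.45, a 2.44-fold difference (log2 1.29, SE 0.22) that did not pass over all genes (limma adjusted p = 0.115; exact permutation p = 0.1, the smallest possible). It passed without mutant 2 (log2 1.53, adjusted p = 0.0351) and with array weights (1.41, adjusted p = 0.0163), and over all alternatives its adjusted p ranged from 0.0046 to 0.533.

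The other cyclases differed less. Adcy2 read 7.17, 6.56 and 6.53 in controls and 7.38, 7.11 and 7.19 in mutants, so control 1 lay among the mutants (log2 difference 0.47, limma adjusted p = 0.475). Without control 1 it passed (0.68, limma adjusted p = 0.0496). It did not pass without control 2 (0.38, adjusted p = 0.838) or without control 3 (0.36, adjusted p = 0.782). Without controls 2 and 3 the difference was 0.060. Adcy7 differed by -0.18 and Adcy10, the soluble cyclase, by 0.09. The list held 11 members, of which the 10 cyclases were measured and Gnas, the gene of the Gs alpha subunit, was not. Of the 10, 0 were called, and 2 had an unadjusted p under 0.05 by limma, against 10.1% of all genes. A difference above 0 was found for 9 of the 10, against 54.6% of all genes, and the median was 0.10, against 0.02. This was the highest share of the pathway lists, of which the others had 40% to 58.3% above 0. Over the settings without 1 array the median ran from 0.051 (without mutant 1) to 0.24 (without control 1). Without controls 2 and 3 it was -0.095.

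Downstream of cyclic AMP, the next list held protein kinase A subunits, catalytic and regulatory, and the phosphodiesterases that break the messenger down. Limma called 0 of 15 measured among 16, and the median log2 difference was 0.00. Of the 15, 3 had an unadjusted p under 0.05 by limma, against 10.1% of all genes. Prkacb, the catalytic subunit beta, read 9.04, 9.02 and 8.91 in controls and 8.65, 8.77 and 8.48 in mutants. The groups did not overlap, and the log2 difference was -0.36 (SE 0.10, limma adjusted p = 0.328). Pde8b, a phosphodiesterase with high affinity for cyclic AMP, read 7.50, 6.74 and 7.0 in controls and 7.54, 7.80 and 7.62 in mutants. Control 1 lay just below the lowest mutant, and the log2 difference was 0.58 (SE 0.20, adjusted p = 0.415; 0.78 with adjusted p = 0.0499 without control 1). Prkar2a, a regulatory subunit, differed by 0.34 and Pde3b, a phosphodiesterase known from adipocytes, by -0.49.

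**Figure D3:**
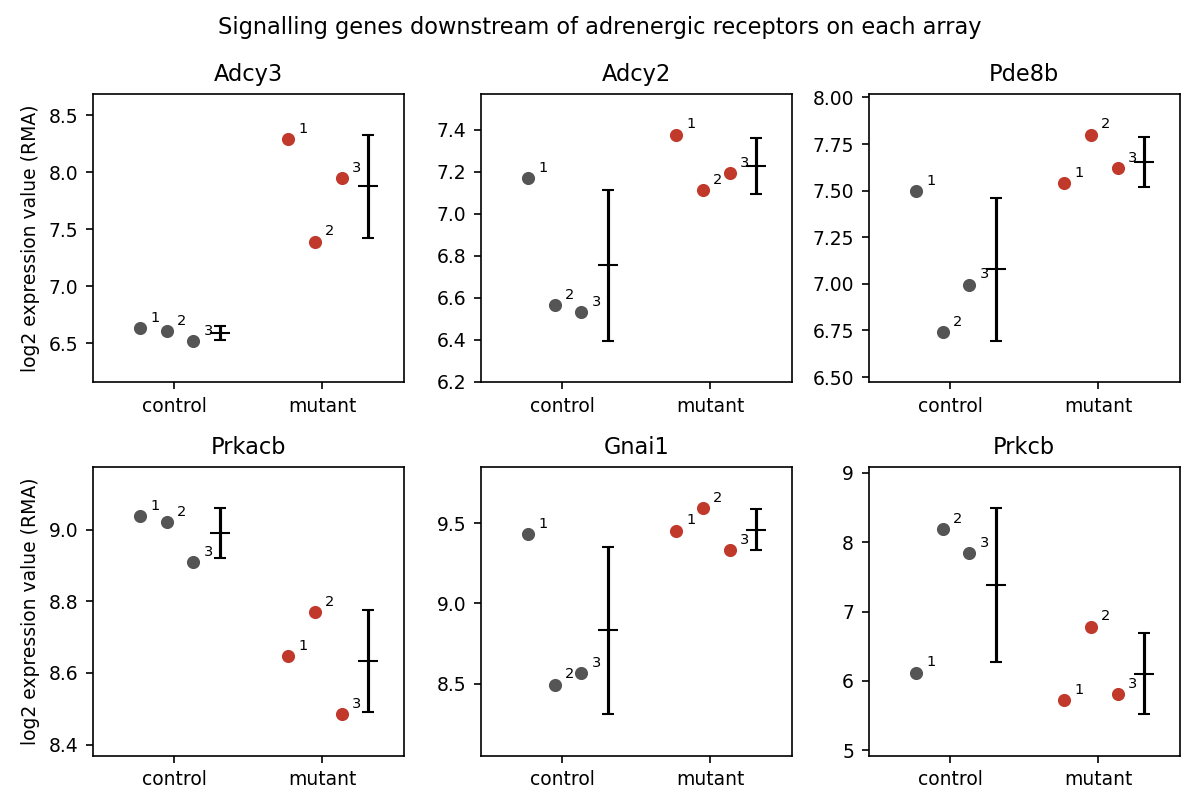
Log2 expression value of 6 signalling genes on each array (y axis; each panel has its own scale and does not start at 0), with points numbered by replicate and bars giving the mean ± SD of 3 arrays. Adcy3, Pde8b and Prkacb show groups that do not overlap, whereas control 1 lies among the mutants for Adcy2, Gnai1 and Prkcb.

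On the alpha-1 side, the Gq and phospholipase C list held 0 called genes of 14 measured among 15, with a median log2 difference of -0.06. Of the 14, 2 had an unadjusted p under 0.05 by limma, against 10.1% of all genes. Gna14, a Gq family alpha subunit, differed by 0.48 (limma adjusted p = 0.482) and Itpr2, an inositol trisphosphate receptor that releases stored calcium, by -0.41 (adjusted p = 0.491). Prkcb, a protein kinase C abundant in B cells, read 6.12, 8.19 and 7.84 in controls and 5.73, 6.78 and 5.81 in mutants. Controls 2 and 3 and mutant 2, the arrays with the highest B and plasma cell means, were the highest for Prkcb too, and the part of those cells was not tested (log2 difference -1.28, SE 0.57, adjusted p = 0.534). Plcb1, a phospholipase C activated by Gq, averaged 6.95 ± 0.51 (SD, n = 3) in controls and 7.53 ± 0.26 in mutants.

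On the alpha-2 side, 0 of 5 measured Gi and Go subunits were called, with a list median of -0.03. An unadjusted p under 0.05 by limma was found for 1 of them, against 10.1% of all genes. That gene was Gnai1, which read 9.43, 8.50 and 8.57 in controls and 9.45, 9.59 and 9.33 in mutants. Control 1 again lay among the mutants (log2 difference 0.63, SE 0.25, limma adjusted p = 0.484), and without control 1 the difference was 0.93 with an adjusted p of 0.0237. Gnai2, the Gi alpha subunit of many blood cells, read 11.2 to 11.3 on the controls and 11.0 to 11.2 on the mutants (log2 difference -0.09), Gnao1 differed by 0.31 and Gnaz by -0.07. The direction of Gnaz turned with array weights (0.07), and that of Gnao1 without control 2 (-0.03).

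The last list holds receptor kinases and arrestins, which silence active receptors, and RGS proteins, which shorten G protein signals. Limma called 0 of 14 measured among 15, and the median log2 difference was 0.00. Of the 14, 1 had an unadjusted p under 0.05 by limma, against 10.1% of all genes. Rgs3 read 8.90, 9.28 and 9.14 in controls and 8.89, 8.30 and 8.66 in mutants (log2 difference -0.49, SE 0.17, limma adjusted p = 0.433), with groups that met closely but did not overlap. A second Rgs3 row differed by -0.26. Rgs4 read 7.90, 6.41 and 6.70 in controls and 7.77, 7.60 and 8.30 in mutants, with control 1 among the mutants (log2 difference 0.88, SE 0.40, adjusted p = 0.537). The receptor kinase genes Grk5 and Grk6 differed by 0.31 and -0.33, and neither passed. The Grk5 difference was 0.086 without mutant 2 and 0.13 without control 2, and that of Grk6 was -0.17 without control 3 and -0.55 without control 1.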

How the data were processed

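Transcripts were measured on 6 Affymetrix arrays, 3 per genotype. The authors deposited a log2 value for each probe set on each array. Their processing notes list oligo, RMA and limma, with no versions; the genome build is not given in the labels. RMA subtracts background, brings arrays to a common distribution and summarises probes. The platform annotation gave 1 symbol for 21789 of 35556 rows, and the row with the highest mean was kept for each of 19938 genes. The fit used limma 3.58.1 under R 4.3.3 (lmFit, eBayes), with genotype as its only term and no filter. Tests were two-sided, with Benjamini-Hochberg adjustment over all genes at a threshold of 0.05, and an exact permutation test over arrays was added for single genes. The procedure was tested on simulated data.

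The receptor genes, the 6 pathway lists and the marker lists were chosen with earlier results of these data known. Named genes are the receptor genes and, from each pathway list, the 4 with the smallest p and any that passed. Arrays carry the numbers 1 to 3 in both groups. Deviations from the group means correlated at 0.14, -0.09 and -0.04 for arrays of one number, so the numbers were not taken as pairs. Motifs were searched in RefSeq windows.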

Additional observations from a re-analysis of the deposited data

How the results depend on the processing

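Neither receptor gene was called under any alternative that measured both, and both fell below the filter that leaves out the lowest 40% of genes. The log2 difference of Adra1b ran from -0.031 (without control 2) to 0.17 (without control 1 and mutant 2), and without controls 2 and 3 it was -0.094. That of Adra2c ran from 0.037 (without mutant 1) to 0.35 (without control 1 and mutant 2), with 0.069 without control 2 and 0.28 without control 1, and was -0.078 without controls 2 and 3. The count over all genes, 53, was 0 with the replicate number as a block (replicate block), 291 with array weights, 82 with an intensity trend, 963 without control 1 and mutant 2 and 0 without controls 2 and 3, and leaving out single arrays gave 9 to 388. Under the replicate block, limma called 0 receptor and 0 pathway genes; there the unadjusted p was 0.525 for Adra1b and 0.113 for Adra2c. Called pathway genes numbered 1 of 70 with array weights, where limma called 291 of 19938 genes. They numbered 0 to 3 without single arrays, where it called 9 to 388 genes, and 10 without control 1 and mutant 2. By list, the adenylyl cyclases gave 1 with array weights, 0 to 1 without single arrays and 2 without control 1 and mutant 2. In that last setting, where 4.83% of all genes were called, the protein kinase A list gave 1 of 15 and the Gq list 5 of 14. There the Gi and Go list gave 1 of 5 and the regulator list 1 of 14. The groups in that setting also differed in B and plasma cell means, and the part of those cells was not tested. Without single arrays the protein kinase A and the Gi and Go lists gave 0 to 1. Without controls 2 and 3, differences turned for Maob (-0.056), Maoa (-0.077), Plcb1 (-0.015), Gnao1 (-0.56), Rgs4 (-0.014) and Grk6 (0.091). Over the settings without 1 array or without control 1 and mutant 2, Ddc ran from -0.0038 to 0.15, Adcy7 from -0.25 to 0.027, Gnao1 from -0.031 to 0.74 and Gnaz from -0.16 to 0.13, and Gnaz was 0.070 with array weights. None of these genes was called with all arrays, and the cause was not tested. Both receptor genes lie at low signal, which limits what these arrays can show.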
